A study of Mus musculus with 3 samples.

Results

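Reads on 7 genes were followed across 3 RNA-Seq libraries of mouse ES cells. Rn45s, Lars2, Mir6236 and Mir6240 are loci that collect ribosomal RNA reads, and Rmrp, Rpph1 and Terc are short noncoding RNA genes. They were selected by gene symbol from the 24421 genes in the deposited counts, and earlier results of the same libraries, including how far these genes moved, were known when they were selected. Their own levels and fold changes are therefore given as a description, without a test. The cells were undifferentiated EL16.7 ES cells, a female line of the F2 background 129S1/CastEiJx 129S1, grown with LIF on irradiated embryonic fibroblasts (MEFs) from Tg(DR4)1Jae/J mice. The control library came from cells transduced with a scramble shRNA lentivirus, and NUP153 KD-1 and KD-2 came from cells transduced with one of 2 NUP153-specific shRNAs. All 3 conditions had 2 days of selection in 2 μg/ml puromycin, and the MEF layer was present in each. Each condition had 1 library, so the spread between replicates is unknown and intervals printed here cover only the counting of reads.

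A mouse ribosome carries a small subunit built on 18S rRNA and a large subunit built on 28S rRNA and shorter rRNAs. RNA polymerase I transcribes the 45S precursor, represented here by Rn45s, which is cut and trimmed into 18S, 28S and a shorter species. Rmrp is the RNA of RNase MRP, an enzyme that cuts this precursor, and Rpph1 is the RNA of RNase P, which trims the 5′ end of tRNA precursors. Both are transcribed by RNA polymerase III. Terc, the template RNA of telomerase, is made by RNA polymerase II, so the 7 genes are not all Pol III products. Lars2 encodes the mitochondrial leucyl-tRNA synthetase and Mir6236 and Mir6240 are annotated microRNA genes. These 3 share with Rn45s only that they are known to attract reads of rRNA. The libraries were depleted of rRNA before sequencing, so rRNA reads on these loci are what was left after depletion. The counts therefore do not measure the amount of rRNA in the cells. How many reads on each locus came from rRNA is not known here.

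RefSeq's mouse table, on the GRCm38.p6 build to which mm10 corresponds, holds 6 of the 7 genes. Rmrp lies at chr4:43492785-43493059 on the minus strand, Rpph1 at chr14:50807447-50807771 on the minus strand, and Terc at chr3:96414437-96414833 on the minus strand. Mir6236 lies at chr9:110281287-110281409, Mir6240 at chr5:114851948-114852064 and Lars2 at chr9:123366927-123462675, all 3 on the plus strand. Rn45s has no entry there. GENCODE release M21 has 4 gene models in a stretch of 5815 bases, chr17:39843013-39848827, of which it types CT010467.1 as rRNA and the other 3 as lincRNA. None of the 4 is in the counts.

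The mature sequences of both microRNA genes, from RefSeq's GRCm38 table, are shown because both genes are annotated by this short product. Capitals mark the seed, bases 2 to 8.
mmu-miR-6236: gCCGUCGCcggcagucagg
mmu-miR-6240: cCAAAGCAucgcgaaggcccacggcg
They share no seed. The miR-6236 seed occurs in no other of the 1738 mature mouse sequences in the table, and the miR-6240 seed occurs in 1 other, mmu-miR-330-3p. G and C make up 78.9% of the 19 bases of miR-6236 and 69.2% of the 26 bases of miR-6240. The hairpin of Mir6240 has 117 bases, and the capitals here mark the mature part within it.
Mir6240 hairpin: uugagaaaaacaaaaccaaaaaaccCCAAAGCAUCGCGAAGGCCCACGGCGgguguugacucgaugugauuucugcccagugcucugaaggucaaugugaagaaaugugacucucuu
Neither mature sequence occurred, on either strand, in a transcript of any other gene among 141767 GENCODE transcripts. The sources used here held no 28S sequence, so likeness to 28S was not computed.

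The 3′ UTR of Lars2 carries a stretch that is known to resemble 28S rRNA. In GENCODE's transcript of 3894 bases, the stretch from base 3163 to 3349 aligned with AA474408, an unclassified GENCODE transcript, at 80.6% identity over 196 aligned columns, of which 34 were gaps. A shorter stretch, from base 3278 to 3349, aligned with the transcript of Gm15564 at 98.6% identity over 72 columns. The longest run that Lars2 shared without a mismatch with AA474408 had 41 bases and with Gm15564 52 bases. Both stretches lie in the 3′ UTR, which begins, with the stop codon counted in, at base 2906 of the transcript. The central 30 bases of the run shared with AA474408, at chr9:123461947-123461976 on the plus strand, are shown because they occur in these 2 genes and in no other GENCODE transcript.
Lars2 3′ UTR: gaaaagttaccacagggataactggcttgt
Neither AA474408 nor Gm15564 was in the counts. The deposited values are totals per gene, so where in Lars2 the reads lay is not known here. Lars2, Mir6236 and Mir6240 shared no 16-base word with each other, with the 4 GENCODE models on chromosome 17 or with the mitochondrial rRNAs. No 28S sequence was among those compared, so nothing about likeness to 28S is read from this.

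Rpph1 has 3 related genes, Rprl1, Rprl2 and Rprl3, and their likeness bears on how its reads could be assigned. The first 257 aligned columns of Rpph1 matched Rprl3 at 86.4%, Rprl2 at 86.0% and Rprl1 at 84.0% identity. The longest run shared without a mismatch was with Rprl3 and had 37 bases, marked here in capitals with 20 flanking bases on each side, from the minus strand at chr14:50807603-50807679 and chr8:3803194-3803270 of GRCm38.
Rpph1: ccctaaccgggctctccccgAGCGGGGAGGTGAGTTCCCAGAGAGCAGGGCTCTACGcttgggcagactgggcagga
Rprl3: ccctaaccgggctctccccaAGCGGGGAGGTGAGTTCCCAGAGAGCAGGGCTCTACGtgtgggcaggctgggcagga
No 50-base word, the length of a read, was shared between Rpph1 and any of the 3. Rpph1 also overlaps an exon of Ccnb1ip1 on the same strand, and a transcript of that gene holds 210 of the 296 16-base words of Rpph1. Rmrp overlaps an exon of Ccdc107 on the opposite strand.

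The sequencing depth was 72344726 reads on genes in control, 85258834 with KD-1 and 69839336 with KD-2. A further 21.5% to 24.1% of all reads fell outside genes and 1.45% to 1.65% were ambiguous between genes. Nup153, the targeted gene, had 27870 reads in control, 16451 with KD-1 and 11126 with KD-2, log2 fold changes of -0.99 and -1.43 after upper-quartile scaling. All 10 ES cell markers were detected in every library. Marker totals differed between libraries. The list of 10 embryonic fibroblast markers summed to 2360 reads per 1000000 gene reads in control, 1586 with KD-1 and 4399 with KD-2, and the ES cell list to 4744, 5104 and 3876. Of the fibroblast markers, 7 of 10 were past 1.5-fold lower in KD-1 and 8 of 10 past 1.5-fold higher in KD-2, and none was at 0 in any library. Of the 10 ES cell markers, 1 was past 1.5-fold higher in KD-1, and 1 higher and 2 lower in KD-2, and the 2 lower became 0 with total gene reads. Over all genes tested, 8.63% were higher and 5.62% lower with KD-1, and 17.1% higher and 10.2% lower with KD-2. With total gene reads, 820 of the 16670 genes tested were lower with KD-2. The part of these markers in the results on the 7 genes was not tested. In such bulk samples, fewer cells of a type and less RNA per cell cannot be told apart.

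Together the 7 genes took 1.66% of gene reads in control, 4.52% with KD-1 and 5.21% with KD-2. The 4 ribosomal RNA loci took 0.834% of gene reads in control (exact Clopper-Pearson 95% interval 0.831 to 0.836), 3.55% with KD-1 (3.54 to 3.55) and 2.25% with KD-2 (2.24 to 2.25). The 3 short noncoding RNA genes took 0.822% in control (0.820 to 0.824), 0.975% with KD-1 (0.973 to 0.977) and 2.96% with KD-2 (2.96 to 2.97). KD-1 thus had the highest share on the ribosomal loci, and KD-2 the highest on the short noncoding RNAs. Terc alone took 0.0045% in control, 0.0055% with KD-1 and 0.0075% with KD-2. The share of the short noncoding RNAs is therefore nearly all Rmrp and Rpph1.

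**Figure D1:**
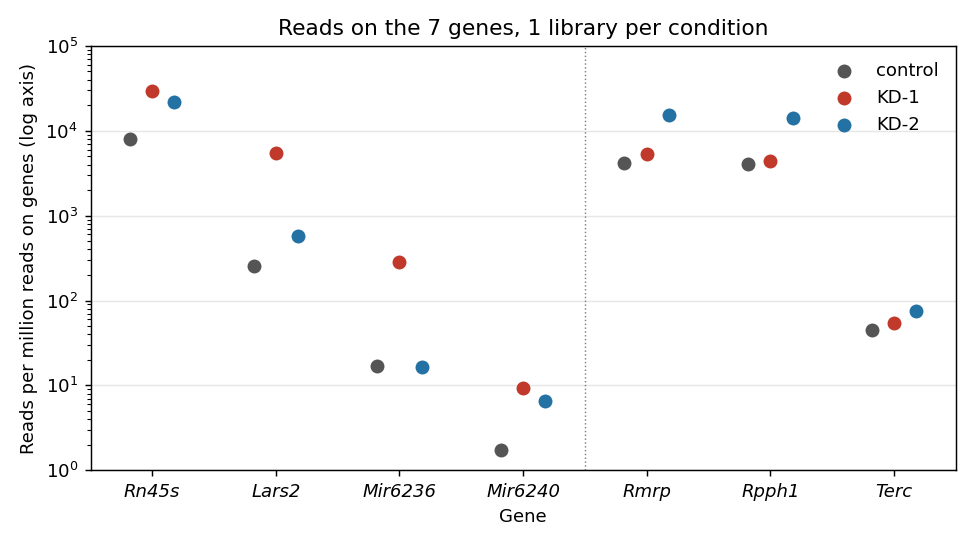
Reads per 1000000 gene reads (log axis) of the 7 genes, with 1 point per library, in control (grey), KD-1 (red) and KD-2 (blue). KD-1 is the highest library at the 4 ribosomal RNA loci left of the dotted line, and KD-2 at the 3 short noncoding RNA genes right of it.

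To compare single genes, reads were scaled by the upper quartile and a fold change was taken as past the threshold above 1.5-fold. Of the 16670 genes that averaged 10 reads or more per library, 8.63% were past it higher and 5.62% lower in KD-1, and 17.1% higher and 10.2% lower in KD-2. The background depended on the scaling and on the minimum mean. In KD-1, 1438 of the 16670 genes were higher and 937 lower with the upper quartile, and 1216 and 1146 with DESeq2's size factors. The median log2 fold change over these genes in KD-2 was -0.02 with the upper quartile, 0.14 with total gene reads and 0.19 with that total without the 7 genes, and the share of higher genes among those past 1.5-fold was 62.6%, 82.8% and 87.0%. All 7 genes passed this minimum. In KD-1, 4 of the 7 were past 1.5-fold higher and 0 lower, and the 4 were the ribosomal loci. In KD-2, 5 of the 7 were past it higher and 0 lower, namely Rn45s, Lars2, Mir6240, Rmrp and Rpph1. The genes were selected with these contrasts known, so nothing is read from their counts against the background. Both comparisons also use the same control library.

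Rn45s had 583027 reads in control, 2533951 with KD-1 and 1525879 with KD-2. It was the second most read gene in control, after the translation elongation factor gene Eef1a1, and the most read gene in both knockdowns. Its share of gene reads was 0.806% in control, 2.97% with KD-1 and 2.18% with KD-2. The fold change was 3.71 with KD-1 (counting interval 3.70 to 3.72) and 2.43 with KD-2 (2.42 to 2.44). On the log2 scale these are 1.89 and 1.28.

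Lars2 had 18671 reads in control, 464039 with KD-1 and 40743 with KD-2. KD-1 stood apart, and KD-2 lay much nearer to control than to KD-1. Lars2 ranked 705 by reads among all genes in control, 5 with KD-1 and 220 with KD-2. The fold change was 21.2 with KD-1 (20.9 to 21.5) and 2.03 with KD-2 (1.99 to 2.06). With a log2 fold change of 4.41, Lars2 had the second highest value of the 16670 genes in KD-1. In KD-2 its value of 1.02 ranked 850.

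Mir6236 had 1229 reads in control, 24133 with KD-1 and 1136 with KD-2. It was high in KD-1 alone. The fold change in KD-1 was 16.8 (15.8 to 17.8), a log2 fold change of 4.07 and the third highest of the 16670 genes. In KD-2 the log2 fold change was -0.22, a fold of 0.858 (0.791 to 0.931), which is within 1.5-fold of control. The KD-2 value ran from -0.22 to -0.01 over the scalings and pseudocounts tried.

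Mir6240 was the least read of the 7 genes, with 126 reads in control, 791 with KD-1 and 461 with KD-2. Both knockdowns were above control. The fold change was 5.36 with KD-1 (4.43 to 6.52) and 3.40 with KD-2 (2.78 to 4.17), with log2 values of 2.42 and 1.76.

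Rmrp had 300662 reads in control, 454056 with KD-1 and 1084311 with KD-2. It went from the ninth place by reads in control to place 7 in KD-1 and place 2 in KD-2, where it took 1.55% of gene reads. The log2 fold change was 0.37 with KD-1 and 1.74 with KD-2, a fold of 1.29 (1.28 to 1.29) and of 3.35 (3.34 to 3.36). Rpph1 had 290657 reads in control, 372259 with KD-1 and 980056 with KD-2. Its place by reads was 10 in control and with KD-1 and 3 with KD-2, where it took 1.40% of gene reads. The log2 fold change was 0.13 with KD-1 and 1.65 with KD-2, a fold of 1.09 (1.09 to 1.10) and of 3.13 (3.12 to 3.14). Both RNAs were thus far above control in KD-2 and within 1.5-fold of it in KD-1. The fibroblast marker total was likewise highest in KD-2, and its part in these values was not tested.

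Terc had 3252 reads in control, 4681 with KD-1 and 5249 with KD-2. The log2 fold change was 0.30 with KD-1 and 0.58 with KD-2. The KD-2 fold of 1.499 (1.43 to 1.57) lay just below the threshold, and it passed the threshold under all 5 other scalings, where log2 values reached 0.79. Of the values that passed, the lowest log2 value against control was the 1.02 of Lars2 in KD-2.

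**Figure D2:**
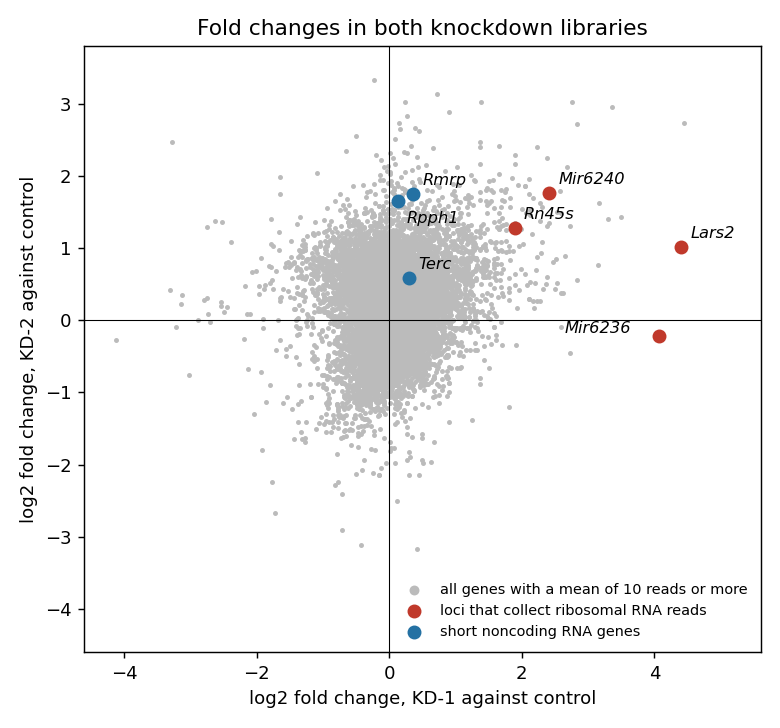
Log2 fold change in KD-1 (x axis) and KD-2 (y axis), each against the same control library, for 16670 genes (grey) with the 4 ribosomal RNA loci in red and the 3 short noncoding RNA genes in blue. Lars2 and Mir6236 lie far to the right at 4.41 and 4.07 on the x axis, while Rmrp and Rpph1 lie above the centre at 1.74 and 1.65 on the y axis.

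Directly compared to KD-2, KD-1 had 13.9% of the 16670 genes past 1.5-fold higher and 16.1% lower. Higher genes were 46.3% of those past it with the upper quartile and 25.9% with total gene reads. Of the 7 genes, the 4 ribosomal loci were past it higher and Rmrp and Rpph1 past it lower. Mir6236 was 19.5-fold higher in KD-1 than in KD-2 (18.4 to 20.7), the highest of all these genes, and Lars2 was 10.5-fold higher (10.4 to 10.6). Rmrp was 2.60-fold lower in KD-1 and Rpph1 2.86-fold lower. For Rn45s the KD-1 to KD-2 fold was 1.53 and for Mir6240 1.58. Both of these last values depended on the scaling: the log2 value of Rn45s ran from 0.39 to 0.61 and that of Mir6240 from 0.44 to 0.66, and Rn45s was within 1.5-fold under all 5 other scalings. Terc was within 1.5-fold, at a log2 value of -0.29.

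Removing the 7 genes from the totals alone shifted every gene by a log2 value of 0.04 with KD-1 and 0.05 with KD-2. For all 7 genes and all 3 comparisons, the sign of the fold change was the same in the 6 scalings and with a pseudocount of 5.

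**Figure D3:**
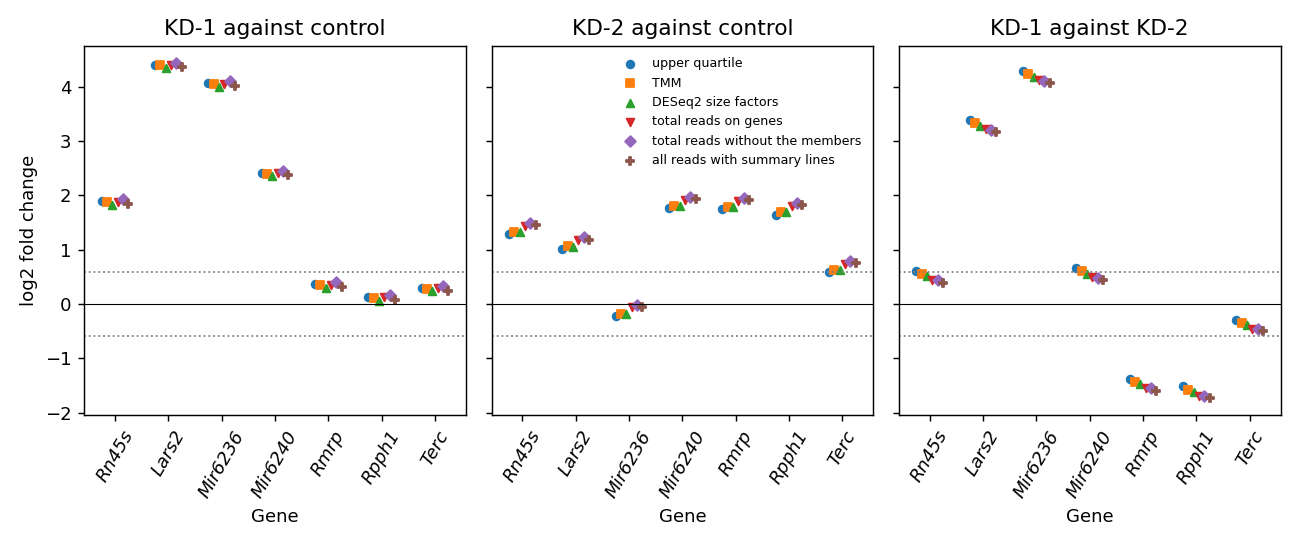
Log2 fold change of each of the 7 genes in the 3 comparisons, with 1 symbol per scaling and dotted lines at 1.5-fold. The symbols of a gene lie within 0.10 of each other in KD-1 against control and about 0.21 in KD-2 against control, and Terc in KD-2 and Rn45s and Mir6240 in KD-1 against KD-2 lie across a dotted line.

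Ratios between genes of the same library do not depend on the scaling. Lars2 had 32.0 reads per 1000 Rn45s reads in control (31.6 to 32.5), 183 with KD-1 (183 to 184) and 26.7 with KD-2 (26.4 to 27.0). Mir6236 had 2.11 per 1000 Rn45s reads in control (1.99 to 2.23), 9.52 with KD-1 (9.40 to 9.65) and 0.744 with KD-2 (0.702 to 0.789). Relative to Rn45s, then, Lars2 was 5.72-fold and Mir6236 4.52-fold above control in KD-1, whereas in KD-2 Mir6236 was 2.83-fold below control and Lars2 1.20-fold below. Mir6240 behaved otherwise, with 0.216 per 1000 Rn45s reads in control (0.180 to 0.257), 0.312 with KD-1 (0.291 to 0.335) and 0.302 with KD-2 (0.275 to 0.331). The 4 ribosomal loci did not keep 1 ratio to each other across libraries. Mir6236 had 65.8 reads per 1000 Lars2 reads in control, 52.0 with KD-1 and 27.9 with KD-2.

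Rmrp and Rpph1 stayed close to each other. Rmrp had 1034 reads per 1000 Rpph1 reads in control (1029 to 1040), 1220 with KD-1 (1214 to 1225) and 1106 with KD-2 (1103 to 1109). The ratio of Terc to them was lower in KD-2. Terc had 11.2 reads per 1000 Rpph1 reads in control (10.8 to 11.6), 12.6 with KD-1 (12.2 to 12.9) and 5.36 with KD-2 (5.21 to 5.50). Rprl3 had 83.5 reads per 1000 Rpph1 reads in control, 106 with KD-1 and 100.5 with KD-2. Rprl2 had 0.795, 0.849 and 0.896 in the same order, with overlapping counting intervals. Rprl1 had 0.310 in control, 0.239 with KD-1 and 0.0775 with KD-2, so it did not share the high KD-2 level of Rpph1.

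**Figure D4:**
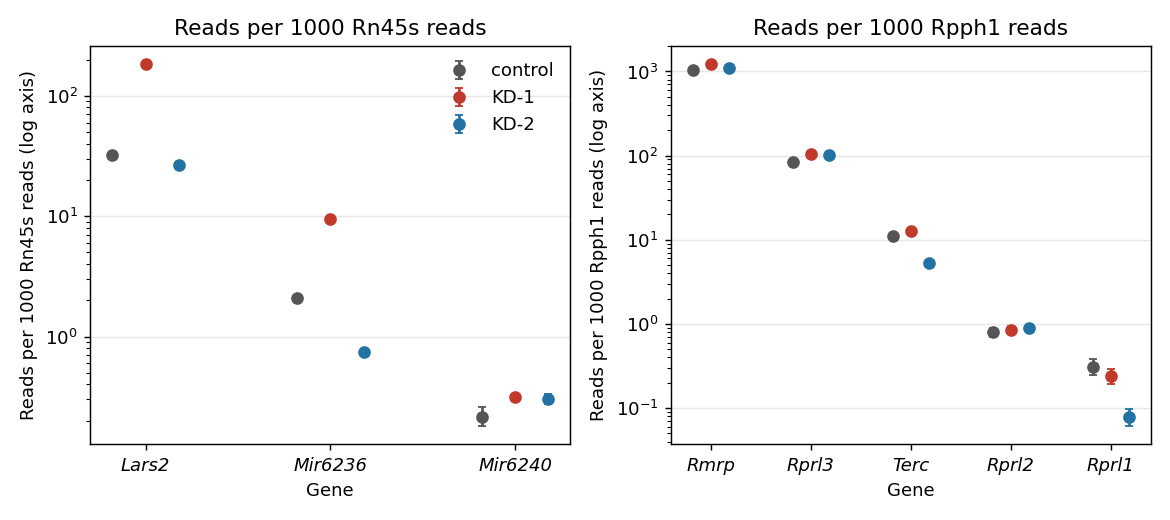
Reads per 1000 Rn45s reads (left) and per 1000 Rpph1 reads (right) in control (grey), KD-1 (red) and KD-2 (blue), on log axes, with exact 95% intervals for the counting of reads, mostly smaller than the points. Lars2 and Mir6236 are highest in KD-1 at 183 and 9.52 per 1000 Rn45s reads, and Terc and Rprl1 are lowest in KD-2 at 5.36 and 0.0775 per 1000 Rpph1 reads.

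Per length of RNA, as RPKM, which divides reads by RNA length and by the gene reads of the library, Rmrp had the highest level of the 6 genes with a length in every library, followed by Rpph1. Rmrp had an RPKM of 15113 in control, 19366 with KD-1 and 56457 with KD-2. Mir6236 had an RPKM of 138 in control, 2301 with KD-1 and 132 with KD-2, Lars2 66.3, 1398 and 149.8, Terc 113, 138 and 189, and Mir6240 14.9, 79.3 and 56.4. The third place was held by Mir6236 in control and KD-1 and by Terc in KD-2. With 1 library each, which neighbours in this order differ beyond the spread of libraries is not known. For Mir6236 and Mir6240 the length is that of the annotated hairpin. For Lars2 it is that of GENCODE's whole transcript, 3894 bases. Where in Lars2 the reads lay is not known, so its place in this order depends on that length.

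Other short noncoding RNA genes were examined from a list of 33 names, of which 10 were in the counts and 8 averaged 10 reads or more. None of the 8 was past 1.5-fold in KD-1. In KD-2, 3 were past it higher and 1 lower, beside 17.1% higher and 10.2% lower over all genes, with a list median of 0.42 on the log2 scale beside -0.02 over all genes. The 3 higher were Rprl3 with 24276 reads in control, 39431 with KD-1 and 98460 with KD-2 (log2 0.47 and 1.91), Rprl2 with 231, 316 and 878 (0.22 and 1.82) and the vault RNA Vaultrc5 with 288, 361 and 483 (0.10 and 0.64). Rprl3 and Rprl2, like Rprl1, are relatives of Rpph1, so they are not cases separate from it. The vault RNA is a Pol III product found in the vault particle of the cytoplasm. The lower one was Rnu73b, with 239, 300 and 169 reads and a log2 value of -0.61 in KD-2, which was within 1.5-fold under all 5 other scalings. Within 1.5-fold in both knockdowns were Bc1, a Pol III RNA best known from neurons (10031, 7910 and 15110 reads; log2 -0.57 and 0.48), the minor spliceosome RNAs Rnu11 (-0.03 and -0.11) and Rnu12 (0.28 and 0.36), and Rprl1 (-0.24 and -0.35). Bc1 depended on the scaling in both knockdowns. It was past 1.5-fold lower in KD-1 with TMM, DESeq2's size factors and all reads. In KD-2 it was past it higher with total gene reads, that total without the 7 genes and all reads. There its log2 value reached 0.695 and 4 genes of the list were higher. Over all 16670 genes, 3942, 4361 and 4020 were higher in KD-2 under these scalings. A second list of 26 other ribosomal RNA loci had 5 in the counts and none with a mean of 10 reads. Of these, Mir2137 had 7 reads in control, 6 with KD-1 and 1 with KD-2, and Rn4.5s had 2, 1 and 5.

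Genes for the proteins that make or work with these RNAs were then examined. Over all genes, 8.63% were past 1.5-fold higher and 5.62% lower in KD-1, and 17.1% higher and 10.2% lower in KD-2, with median log2 fold changes of 0.02 and -0.02. For Pol I, 16 subunit and factor genes were counted, with 0 past 1.5-fold in KD-1 and 2 past it lower in KD-2, a share near the 10.2% over all genes, and medians of -0.07 and -0.37. In KD-1 they ran from Znrd1 at -0.19 to Taf1c at 0.18, and in KD-2 from Taf1d at -0.81 to Taf1c at 0.57. Taf1c was past 1.5-fold higher in KD-2 under all 5 other scalings, and 1 gene instead of 2 was lower with total gene reads. For Pol III, 28 genes were counted, with 1 past it higher in KD-1, and 1 higher and 2 lower in KD-2, shares below the 17.1% and 10.2% over all genes, and medians of -0.01 and -0.26. The higher gene was Snapc2 in both, a subunit of the complex that binds small nuclear RNA promoters, with 299 reads in control, 530 with KD-1 and 508 with KD-2 (log2 0.60 and 0.66). The KD-1 value of Snapc2 was within 1.5-fold with TMM, DESeq2's size factors and all reads. The 2 lower were Polr3g, a Pol III subunit gene, at -0.64 and Ssb, the gene of the La protein that binds the ends of new Pol III transcripts, at -0.585, just past the threshold. Ssb was within 1.5-fold under all 5 other scalings and Polr3g under the 3 based on total reads, so that with total gene reads 0 were lower.

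Of 11 protein genes of RNase P and RNase MRP, 0 were past 1.5-fold in KD-1 and 2 past it lower in KD-2, beside 10.2% of all genes, with medians of -0.01 and -0.38. They ran in KD-1 from Rpp30 at -0.19 to Rpp21 at 0.32, and in KD-2 from Rpp40 at -0.61 to Rpp21 at 0.23. The protein genes of these 2 enzymes thus did not have the KD-2 values of their RNAs, 1.65 for Rpph1 and 1.74 for Rmrp. Of 9 telomerase protein genes, 0 were past 1.5-fold in KD-1 and 3 past it lower in KD-2, beside 10.2% of all genes, with medians of -0.06 and -0.30. Tep1 was lowest in KD-1 at -0.39 and highest in KD-2 at 0.30, Tert, the catalytic subunit, was highest in KD-1 at 0.10, and Dkc1, whose protein binds Terc and modifies RNA, was lowest in KD-2 at -0.68. With libraries scaled to total gene reads, the counts of lower genes in KD-2 were 0 for both of these lists, beside 820 of all 16670 genes.

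Of 39 ribosome assembly genes, 0 were past 1.5-fold in KD-1 and 8 were past it lower in KD-2, beside 10.2% of all genes, with medians of -0.06 and -0.46. Npm1, an abundant nucleolar protein gene, was lowest in KD-2 at -0.85, with 435276 reads in control, 450256 with KD-1 and 260490 with KD-2. Rrp9 was highest in KD-2 at 0.21, and in KD-1 the list ran from Nop16 at -0.27 to Nop2 at 0.17. The count of 8 lower in KD-2 fell to 1 of 39 when libraries were scaled to total gene reads, where 820 of all 16670 genes were lower. The Lars2 value was not shared by the other genes for loading mitochondrial tRNAs. Of 21 such genes, 0 were past 1.5-fold in KD-1 and 2 past it lower in KD-2, near the 10.2% of all genes, with medians of -0.06 and -0.24. In KD-1 they ran from Gatc at -0.26 to Ears2 at 0.30, and the highest in KD-2 was Vars2 at 0.36. The 2 lower became 1 with total gene reads and 0 with that total without the 7 genes. Of all 16670 genes, 820 and 652 were lower in KD-2 under these scalings.

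**Figure D5:**
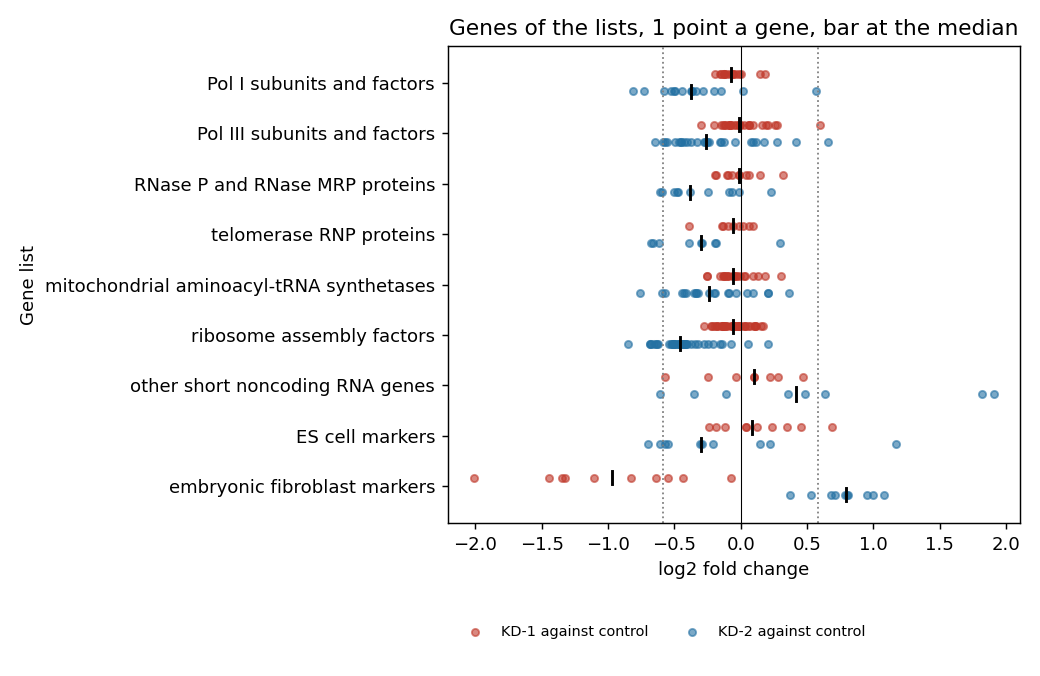
Log2 fold change (x axis) of each gene of 9 lists against the same control library in KD-1 (red) and KD-2 (blue), with 1 point per gene, a bar at the list median and dotted lines at 1.5-fold. The protein lists lie mostly between the dotted lines, Rprl3 and Rprl2 lie at 1.91 and 1.82 in KD-2, and the fibroblast markers have medians of -0.97 with KD-1 and 0.80 with KD-2.

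Genes with an annotated microRNA name were compared to the microRNA genes studied here. Of 1180 in the counts, 140 averaged 10 reads or more. In KD-1 the other 138 had a median log2 fold change of 0.10 and ran from -1.71 for Mir92b to 1.68 for Mir7003. Mir6236 at 4.07 and Mir6240 at 2.42 lay above this range. In KD-2 the other 138 ran from -2.14 for Mir19b-1 to 2.41 for Mir199a-1 with a median of -0.35. Mir6236 and Mir6240 lay inside that range. Both were selected with these fold changes known, so nothing is read from their place among the microRNA genes.

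The genes whose pair of log2 fold changes lay nearest to that of Lars2 or Rn45s were taken from the 12743 genes that averaged 100 reads or more, by Euclidean distance over both knockdowns. For Rn45s these were Sycp1 (distance 0.11), Oit1, Cd209c, Cidea and Hist1h1t (0.37). Sycp1, a protein of the meiotic synaptonemal complex, had 303 reads in control, 1417 with KD-1 and 784 with KD-2. For Lars2 the nearest was Mir6236 at a distance of 1.29, followed by Zscan4d, Zscan4a, Zscan4c and Tex101 (2.05). Few genes therefore lay near Lars2. The Zscan4 genes, which mark a rare 2-cell-like state of ES cells, had 32 to 53 reads in control, 234 to 363 in KD-1 and 45 to 82 in KD-2. The genes nearest to Rmrp and Rpph1 were added after their values were seen. For Rmrp they were Endog (distance 0.05), Hist2h3b, 4930539J05Rik, Hist1h2af and Rprl2 (0.16). For Rpph1 they were Smad6 (0.04), Tpgs1, Hist1h2bf, Atoh8 and Hist1h4d (0.10). These distances rest on 3 libraries and 1 shared control.

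Neighbouring genes were read for what overlap could add. Ccnb1ip1, which shares a strand and an exon stretch with Rpph1, had 2750 reads in control, 2610 with KD-1 and 1489 with KD-2, a log2 fold change of -0.30 and -0.99. Parp2, which lies 70 bases from Rpph1 on the other strand, had values of -0.21 and -0.53. Ccdc107, opposite to Rmrp, had 899, 1061 and 1163 reads and values of 0.01 and 0.26. None of these 3 had the high KD-2 value of the RNA gene beside it. Which strand was counted is not given in the sources used here, so reads of overlapping genes could not be separated further.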

How the data were processed

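RNA-Seq measured 1 control, 1 KD-1 and 1 KD-2 library. Per the methods, total RNA was depleted of rRNA with Ribo-Zero Gold, and per the submitters' processing notes reads were trimmed with Trim Galore 0.4.1, mapped with TopHat2 2.1.1 to mm10 and counted with HTSeq, while the methods name featureCounts. What the authors deposited is the raw, unnormalized count of each gene. They kept only reads above a mapping quality minimum, so reads with several equal matches may be missing. The files end in 5 summary lines, which were kept out of gene totals.

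Libraries were scaled by the upper quartile with edgeR 4.0.16 in R 4.3.3. Log2 fold changes used a pseudocount of 0.5 scaled reads, so they are slightly understated for low genes. With 1 library per condition no p-value was computed. Intervals are exact at 95%, from the binomial distribution of the reads, and cover counting error only: reads are not independent molecules. The fold calculation was tested on simulated data.

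Genes named are the 7 members, list genes by a fixed rule (every counted gene of both RNA lists; of the other lists those past 1.5-fold the same way in both knockdowns, otherwise the highest and the lowest; 5 nearest genes), Nup153, and neighbouring genes chosen after their values were seen. One gene that the rule names is not reported here. The members and lists were chosen with earlier results of these data known. Alternatives were TMM, DESeq2 1.42.0 size factors, total gene reads, that total without the members, all reads, a pseudocount of 5, a fold above 2, and other minimum means and denominators. Sequences came from RefSeq (GRCm38.p6) and GENCODE M21. Alignments were local, made with Biopython 1.88. Python 3.11.15, numpy 2.4.6, pandas 2.3.3, scipy 1.17.1 and matplotlib 3.10.9 were used.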

Additional observations from a re-analysis of the deposited data

Results flagged for a closer look

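Mir6236 was above control in KD-1 and slightly below it in KD-2, with log2 fold changes of 4.07 and -0.22. The signs were thus opposite, but the KD-2 value ran from -0.22 to -0.01 over the scalings and pseudocounts tried. KD-1 against KD-2 had a log2 value of 4.29. The difference was not tested, since each knockdown had 1 library, and the KD-2 value was within 1.5-fold of control.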

How the results depend on the processing

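The counts of the 7 genes past 1.5-fold stayed within 1.5 times of the values given under every alternative, at 4 for KD-1, 5 or 6 for KD-2 and 4 to 6 between the knockdowns, and with a fold above 2 they were 4, 5 and 4. Terc in KD-2, and Rn45s and Mir6240 between the knockdowns, were the genes that changed side, and no called log2 fold change turned its direction. Counts over all genes moved with the threshold and filter by construction: 2375 for KD-1, 4547 for KD-2 and 5013 between the knockdowns became 770, 1212 and 1839 with a fold above 2, 5298, 7461 and 8080 among genes with at least 1 read in any library, and 1028, 2852 and 3318 with a mean of at least 100 reads. With all reads as the denominator, the share of the ribosomal loci was 0.638% in control, 2.64% with KD-1 and 1.73% with KD-2, and that of the short noncoding RNA genes 0.629%, 0.725% and 2.28%. With gene reads without the 7 genes it was 0.848%, 3.71% and 2.37%, and 0.836%, 1.02% and 3.13%. The order of the libraries was the same in each. No paired analysis was possible because each condition had 1 library, and for the same reason no library could be left out. Of the 7 genes Mir6240 had the fewest reads in control, 126, and genes named beside them had fewer, down to 1 read for Mir2137 with KD-2 and Rn4.5s with KD-1.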
